A study of Mus musculus with 2 samples.

Results

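The cytosolic ribosomal protein genes are the genes for the protein part of the ribosome outside mitochondria. They were chosen by symbol alone, as every feature whose symbol starts with Rpl or Rps followed by a digit or p, with pseudogenes marked -ps and the Rps6k kinases left out. The rule gave 90 of the 46984 features. Of these 76 are genes of the ribosome itself, 46 for the large (60S) and 30 for the small (40S) subunit. The other 14 are paralogs (Rpl22l1, Rps27l, Rpl36al, Rpl7l1, Rpl10l, Rpl39l, Rpl3l), copies (Rpl37rt, Rps27rt, Rps4l, Rps12l1, Rps3a2, Rps3a3) and Rps19bp1, a nuclear protein that binds Rps19 and is not part of the ribosome. The annotation lists 85 members as protein coding and 5 as processed pseudogenes, spread over 19 chromosomes. The rule misses ribosomal genes with other symbols, of which Rpsa, Fau and Rack1, listed here under its older symbol Gnb2l1, are given at the end.

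Ribosomal proteins are made in equal numbers, 1 of most of them per ribosome, and their mRNAs are among the most abundant in any cell. In vertebrates these mRNAs start with a run of pyrimidines, the 5′ terminal oligopyrimidine (TOP) tract, through which growth signals acting by mTOR set their translation. In islets the secreted hormones take up so much of the mRNA that the share left to ribosomal protein mRNAs depends on how much hormone mRNA a cell holds. For that reason shares are given below of the UMIs that were not from the 8 islet hormone genes (Ins1, Ins2, Gcg, Sst, Ppy, Pyy, Iapp, Ghrl), and for the main groups also of all UMIs.

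The data are single-cell RNA counts from the pancreas of 1-month-old mice, captured with the 10x kit for 3′ ends (version 3.1). Islet cells had been dissociated with actinomycin D, a blocker of transcription, and sorted for the red reporter tdTomato. Both groups carry the same Neurod1 Cre/+ allele, in which Cre is driven from Neurod1, a gene of endocrine cells and their precursors. Control animals were Neurod1 Cre/+; Isl1f/+ and so lose 1 copy of Isl1, a LIM-homeodomain factor of endocrine cells, while Isl1CKO animals were Neurod1 Cre/+; Isl1f/f. Cells of 3 animals were pooled into 1 library per genotype, so differences between genotypes come without replicate error and without p-values, and the exact 95% intervals cover counting error only. After filtering, 4200 control and 8145 Isl1CKO endocrine cells remained, with medians of 9027.5 and 8149 UMIs (molecular identifiers that count each captured RNA once). All 8 pan-endocrine markers (Chga, Chgb, Neurod1, Pax6, Insm1, Pcsk2, Scg5, Cpe) were detected in both libraries, at 2.16% and 10.6% of UMIs. The hormone genes made up 42.2% of control and 3.71% of Isl1CKO UMIs. Isl1 itself was at 529 CPM (UMIs per 1000000 non-hormone UMIs) in control and 368 in Isl1CKO, a level that does not check the deletion, as the labels do not say which part the floxed allele loses and 3′ tags of the RNA left would still be counted. Between the libraries, 8 barcodes with at least 1000 UMIs were shared.

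The labels call the control cells male and the Isl1CKO cells female and male, but 970 of the 4200 control cells (23.1%) had Xist and no Y-linked UMI, and 1733 (41.3%) had Y-linked UMIs and no Xist. In Isl1CKO 5331 cells (65.5%) were of the first kind and 1678 (20.6%) of the second. These kinds are called female and male cells below. The other 1497 control cells (35.6%) and 1136 Isl1CKO cells (13.9%) had both or neither and were given no sex. The pools therefore differ in their mix of sexes, and if each pool holds 3 animals of both sexes, a sex stands for at most 2 animals in it. Each main value is given for both sexes as well.

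Over all endocrine cells ribosomal protein mRNA took a larger part of all UMIs in Isl1CKO, 13.8% against 8.60% in control, which is 1.61-fold. Of the UMIs that were not from hormone genes it took 14.9% in control (interval 14.87 to 14.89%) and 14.4% in Isl1CKO (14.35 to 14.37%), a log2 ratio of -0.05. The direction thus turned with the choice of total. The ratio was also positive with TMM scaling (0.15) and RLE scaling (0.15), whose factors apply to the total of all UMIs. For the median non-hormone share per cell it was positive too (0.06).

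Cells were then grouped by which hormones reached 1% of their UMIs. Free RNA, read from barcodes with few UMIs, was 42.2% hormone UMIs in control but 2.50% in Isl1CKO. The same limit may therefore select different cells in the 2 libraries, which bears on each comparison of a group between them. How far free RNA set the groups was not tested. Only 8 Isl1CKO cells had 2 or more hormones. In control, the 1576 cells with glucagon alone had the highest ribosomal protein share of non-hormone UMIs, 17.9%. The 1682 cells with 2 or more hormones followed at 14.1%, the 437 pancreatic polypeptide cells at 12.4% and the 217 somatostatin cells at 11.4%. The 187 insulin cells, at 9.58%, and the 101 cells without a hormone, at 9.12%, were lowest. Glucagon cells thus stood 1.87-fold above insulin cells, and the interquartile range of the glucagon cells (15.8 to 20.02%) did not overlap that of the insulin cells (8.18 to 10.7%). With hormone UMIs in the total the distance was wider, 11.1% against 3.20%, where hormones were 38.4% of the UMIs of glucagon and 66.6% of those of insulin cells. The other control groups stood at 8.68% (2 or more hormones), 5.47% (pancreatic polypeptide), 7.99% (somatostatin) and 8.90% (no hormone) of all UMIs.

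In Isl1CKO the pooled values lay close together, and their order differed by sex. The 172 cells that still held glucagon were at 13.9%, the 928 insulin cells at 14.0% and the 7031 cells without a hormone at 14.4%, so that glucagon and insulin cells differed by a log2 ratio of -0.01. Within a sex they were further apart and in opposite orders: male cells were at 11.8% with glucagon, 10.6% with insulin and 10.3% without a hormone, the order of control, and female cells at 14.6%, 16.2% and 16.3%. Female cells, as defined above, were 70.3% of the glucagon, 55.9% of the insulin and 66.5% of the hormone-free cells. Of all UMIs, both sexes together, the 3 groups were at 13.5%, 11.6% and 14.3%. Cells without a hormone were split further by UMIs of lineage transcription factors. Those with alpha cell factors only, a list that includes Irx1 and Irx2 (1446 cells), were at 14.0%. Those with only Pdx1 or Nkx6-1 (beta cell factors, 2560 cells) were at 14.3%. Cells with alpha cell factors and also beta cell factors or Hhex (mixed factors, 1471 cells) were at 14.5%, and those with none (1197 cells) at 14.999%. The 357 cells with Hhex, a delta cell factor, were at 15.9%, and 80.1% of them were female. These Hhex cells had no alpha cell factor but could hold beta cell factors. Within female cells the groups lay close together, Hhex at 16.6%, mixed factors at 16.5%, beta cell factors at 16.3%, no factor at 16.3% and alpha cell factors at 15.96%. In male cells Hhex (26 cells) was at 9.97%, below mixed factors (10.9%) and alpha cell factors (10.5%), with beta cell factors at 9.80% and no factor at 8.66%. In control the only such group with at least 50 cells was the 79 cells with beta cell factors, at 8.85%.

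**Figure D1:**
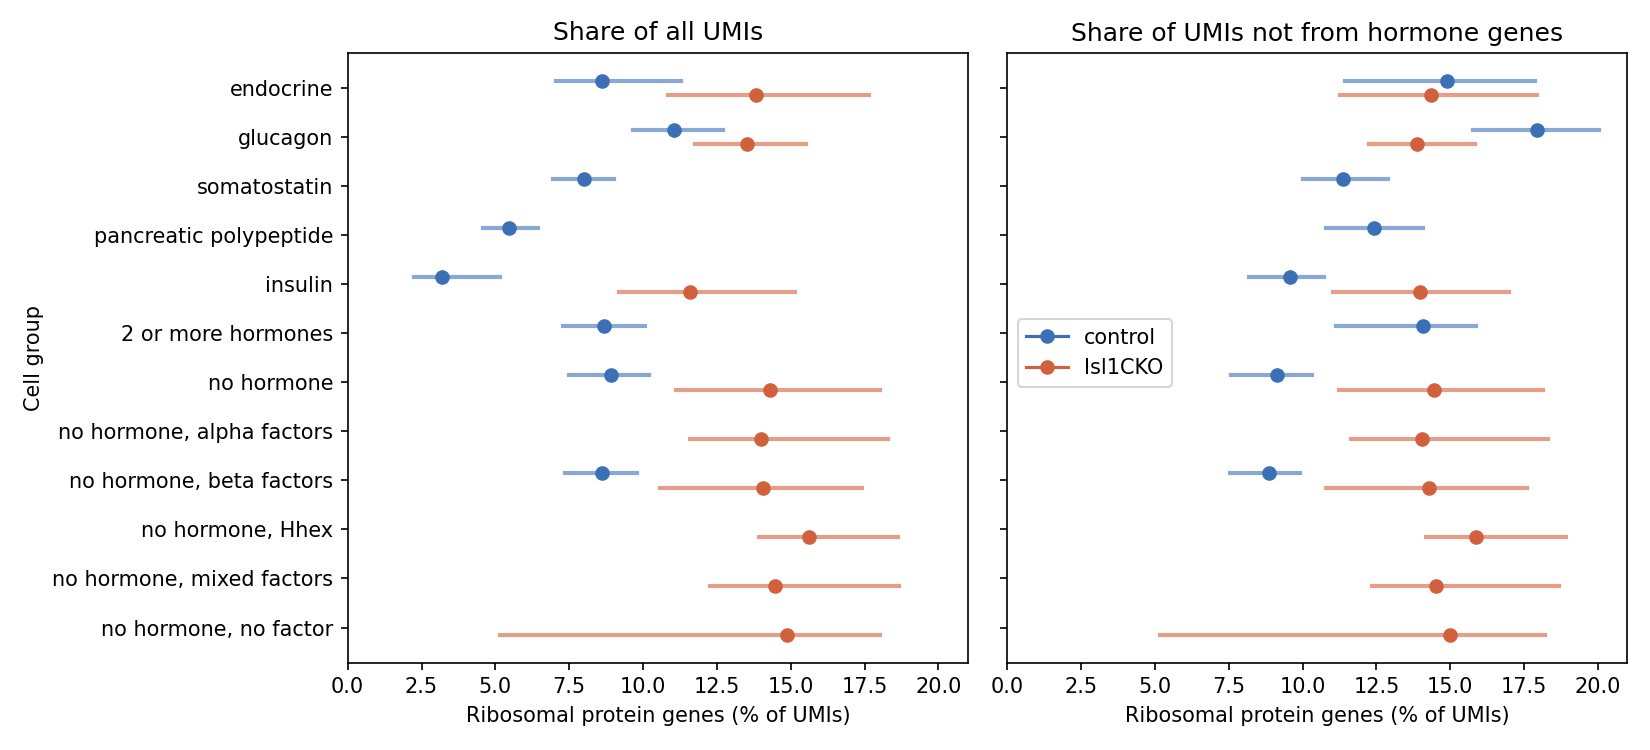
Ribosomal protein genes as a percentage of all UMIs (left) and of UMIs not from hormone genes (right) by cell group; dots are pooled shares, lines the interquartile range of cells, blue is control and red Isl1CKO, groups of at least 50 cells. In control the non-hormone share runs from 8.85% in hormone-free cells with beta factors to 17.9% with glucagon, while all Isl1CKO groups lie between 13.9% and 15.9%.

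Set against control by group, the non-hormone share in glucagon cells was 13.9% in Isl1CKO and 17.9% in control, a log2 ratio of -0.37, but this turned to 0.29 with all UMIs in the total, 0.03 with TMM and 0.05 with RLE. In insulin cells it was 14.0% against 9.58%, a log2 ratio of 0.54 that was positive under each of these scalings (0.73 to 1.86). In cells without a hormone it was 14.4% against 9.12%, a log2 ratio of 0.66 (0.69 to 1.02 under the other scalings). These groups differed in make-up. Beta cell factors alone were found in 79 of the 101 control and 2560 of the 7031 Isl1CKO cells, alpha cell factors alone in 3 and 1446. Between the cells with beta cell factors only the log2 ratio was 0.69. Isl1CKO cells with alpha cell factors only stood at -0.35 to control glucagon cells, but at 0.34 with all UMIs in the total. Insulin UMIs differed between the libraries within the insulin group too: hormones were 66.6% of its UMIs in control and 17.1% in Isl1CKO. Among Isl1CKO cells of all groups, the 5667 with under 1% hormone UMIs had a share of 14.5% of non-hormone UMIs. The 1604 with 1 to 5% had 14.3% and the 656 with 5 to 20% had 14.1%. The 170 with 20 to 40% had 13.6% and the 40 with 40 to 60% had 12.2%. In control the same bins had 9.34% (34 cells), 8.38% (86), 12.9% (212), 14.7% (2310) and 16.5% (1249). The 309 control cells with 60% or more had 12.1%.

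Shallow cells had low ribosomal protein shares and high mitochondrial shares in both libraries. In cells of 1000 to 2000 UMIs the non-hormone share was 6.95% in control (112 cells) and 5.60% in Isl1CKO (414 cells), with 3.63% and 6.68% mitochondrial UMIs. A share under 5% was found in 72 control cells (1.71%) and 463 Isl1CKO cells (5.68%), of which 455 had no hormone. With at least 3000 UMIs per cell the ratios were -0.04 over endocrine, -0.38 in glucagon and 0.54 in insulin cells, close to those above. Barcodes of 10 to 100 UMIs, which hold free RNA, had ribosomal protein shares of 13.3% in control and 14.0% in Isl1CKO of non-hormone UMIs. Across single cells the coefficient of variation of the share was 30.5% in control and 35.05% in Isl1CKO. Acinar markers (8 genes) made up 0.00339% of control and 0.0169% of Isl1CKO UMIs, ductal markers (5 genes) 0.0254% and 0.0395%. Their part in the results was not tested.

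The share differed more by sex than by cell group in Isl1CKO. Female cells were at 16.2% of non-hormone UMIs and male cells at 10.4%, a log2 ratio of 0.65, and the interquartile ranges of the cells (14.2 to 18.9% and 8.69 to 11.7%) did not overlap. In control female cells were at 15.7% and male cells at 14.3%, and there the interquartile ranges overlapped widely. Cells given no sex, a larger part of control (35.6%) than of Isl1CKO (13.9%), were at 15.1% and 13.2%. The Isl1CKO gap was present in each group with enough cells: 14.6% and 11.8% in glucagon cells, 16.2% and 10.6% in insulin cells, and 16.3% and 10.3% without a hormone. It was also present at matched depth, 17.1% and 10.3% among cells of 5000 to 10000 UMIs and 15.6% and 10.6% among those of 10000 to 20000. Male cells had somewhat more mitochondrial UMIs, 1.76% against 1.51%. The sorting reporter tdTomato was 0.728% of UMIs in female and 0.153% in male Isl1CKO cells. In control it was 0.075% and 0.119%. Whether this bears on the gap was not tested. The labels do not tie cells to animals, so sex and animal cannot be told apart.

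Between genotypes, female endocrine cells had a log2 ratio of 0.05 and male ones of -0.46. In insulin cells the ratio was 0.79 in female cells, which rests on 20 control cells, and 0.16 in male cells (99 control and 270 Isl1CKO cells). In glucagon cells it was -0.32 in female and -0.56 in male cells, and without a hormone 0.86 and 0.15. The values without a hormone rest on 19 female and 34 male control cells. Per non-hormone UMI the insulin and no-hormone ratios were thus positive in both sexes and the glucagon ratio, whose pooled value turned with the scaling, negative in both. Glucagon cells stood above insulin cells in both sexes of control (18.2% over 9.33% in female and 17.4% over 9.44% in male cells) and in male Isl1CKO cells (30 with glucagon), but below them in female Isl1CKO cells.

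**Figure D2:**
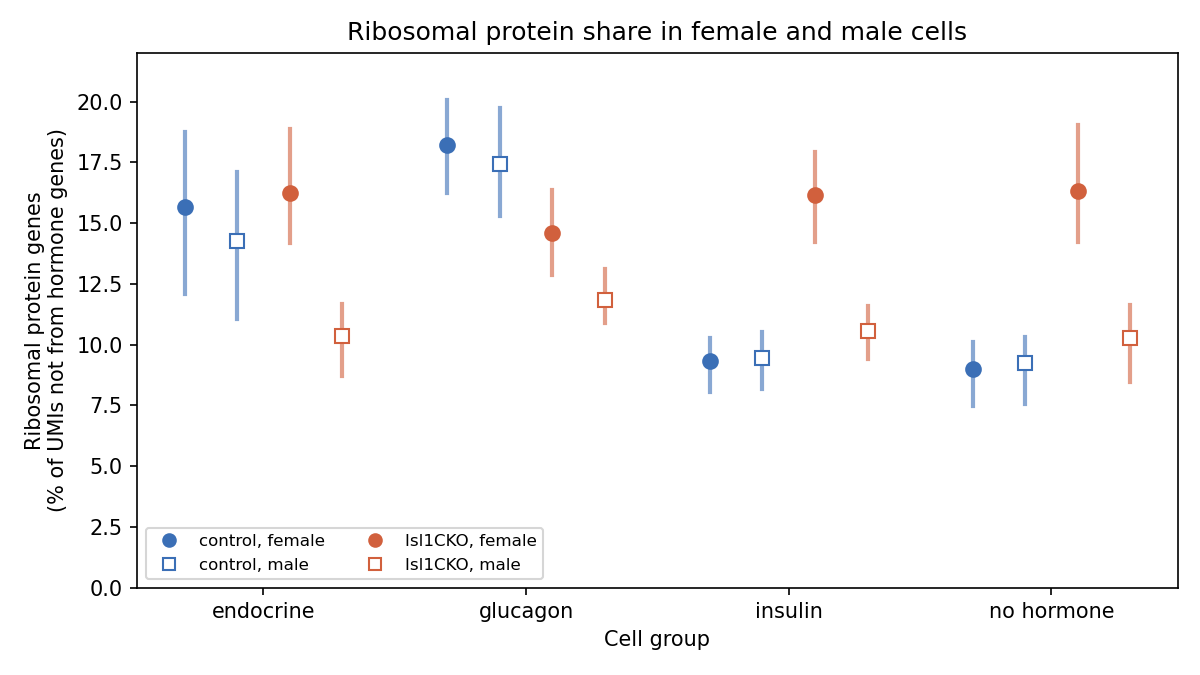
Ribosomal protein genes as a percentage of non-hormone UMIs in female (filled circles) and male (open squares) cells of control (blue) and Isl1CKO (red), in 4 cell groups; markers are pooled shares and lines the interquartile range of cells. In Isl1CKO female cells lie above male cells in each group, by the widest margin without a hormone (16.3% and 10.3%).

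The single genes spanned a wide range of levels, and their order was much alike in both libraries. Over endocrine cells 84 members reached 5 CPM in 1 library, and their log2 levels correlated across genes with r = 0.97 (rho = 0.94, n = 84 genes that share library and total; a description). Since each UMI marks the 3′ end of 1 RNA, levels are not divided by gene length. The 8 highest members of each library held 23.8% of ribosomal protein UMIs in control and 21.7% in Isl1CKO. The 6 members under 5 CPM were Rpl10l, Rpl3l and Rps12l1, with no UMI in either library, Rpl39l with 1 UMI in all, and the copies Rps3a2 and Rps3a3.

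In the small subunit Rps24 was the highest member in control at 6107 CPM of non-hormone UMIs and was at 4110 in Isl1CKO. Rps3a1 stood at 5278 and 3883. Rps27a, made as a fusion of ubiquitin with a ribosomal protein, stood at 4132 and 3541. Among the high members of the large subunit Rpl9 was at 4418 and 3777, Rpl8 at 3744 and 3128 and Rpl13 at 3698 and 2904. These 6 genes were all lower per non-hormone UMI in Isl1CKO, by log2 ratios of -0.22 (Rps27a) to -0.57 (Rps24), and stay so with TMM and RLE, which add 0.20, but with all UMIs in the total every one of the 84 members was higher in Isl1CKO. Rpl41, the smallest ribosomal protein at 25 residues, was higher on either total, at 4355 and 5686 CPM of non-hormone UMIs.

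The balance of the subunits also differed. Rps symbols gave 45.4% of ribosomal protein UMIs in control and 42.8% in Isl1CKO, a share that no scaling of the total changes. In glucagon cells it was 45.7% and 41.6%, in insulin cells 43.4% and 43.0%, and without a hormone 44.3% and 42.8%. Female cells were at 45.6% and 43.0% and male cells at 45.4% and 42.1%. The difference between the libraries was thus present in both sexes and in free RNA (46.0% and 43.6%), and was smallest in insulin cells.

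To compare genes within the ribosome, each gene's log2 ratio was set against that of the median member, which no scaling affects. Of 83 members at 20 CPM and 20 UMIs or more, 64 deviated the same way over all endocrine, glucagon and insulin cells. Furthest above the median were Rps27, a zinc finger protein of the small subunit (840 CPM in control and 1740 in Isl1CKO, deviation 1.05), Rpl36 (1190 and 2390, 1.00), Rps28 (282 and 558, 0.98), Rpl27 (275 and 513, 0.90) and Rpl38 (890 and 1560, 0.81). Rpl37rt (0.78), Rpl24 (0.77) and Rps29 (0.72) followed. Rpl24 carries a same-strand overlap with another annotated gene, and Rps28 an opposite-strand one. Most of these genes are small: Rps29 codes for 56 residues, Rps28 for 69, Rpl38 for 70, Rps27 for 84 and Rpl36 for 105, while Rpl27 codes for 136 and Rpl24 for 157.

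Furthest below the median member was Rplp0, the protein that anchors the stalk where elongation factors bind, at 2024 CPM in control and 1289 in Isl1CKO, a deviation of -0.65. Of the other stalk proteins, Rplp1 deviated by -0.56 (2686 and 1825) but Rplp2 by only 0.02. Rps4l (-0.65), Rpl15 (181 and 116, -0.64), Rpl35a (2310 and 1516, -0.61), Rps24 (-0.57), Rps3, a protein at the mRNA entry of the small subunit (2377 and 1611, -0.56), and Rpl27a (-0.55) were the others.

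**Figure D3:**
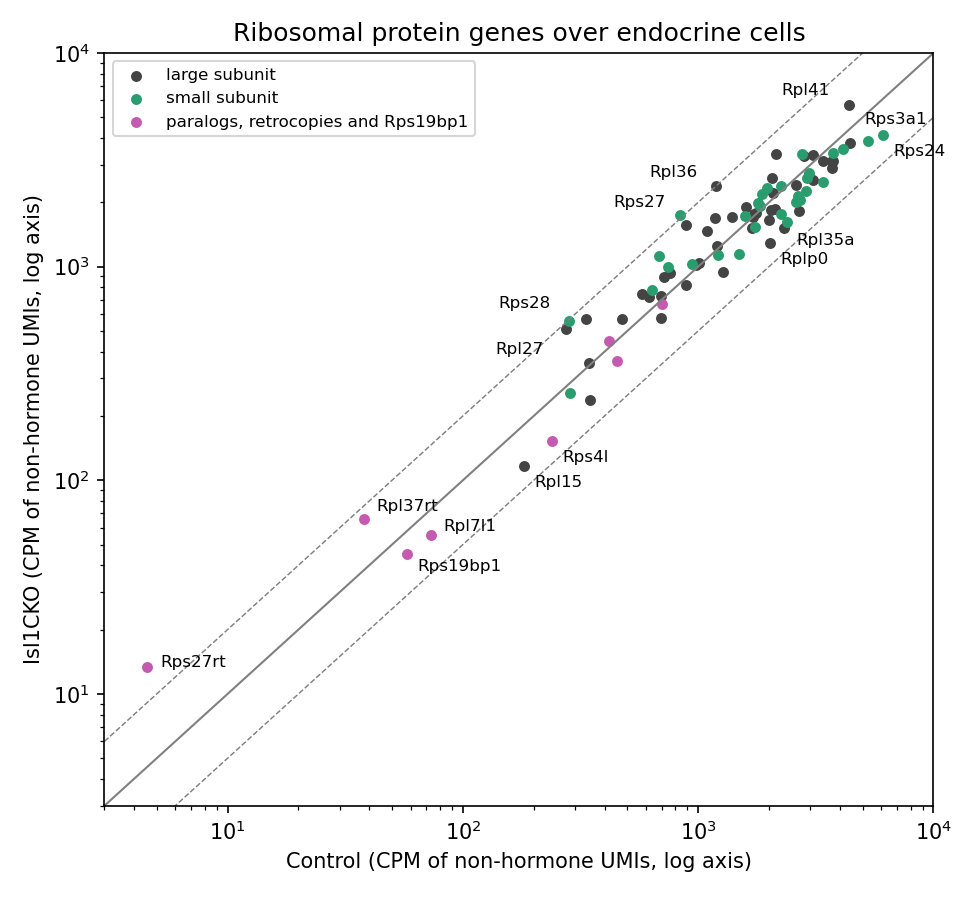
Level of each of 84 ribosomal protein genes over endocrine cells in control (x axis) and Isl1CKO (y axis), in CPM of non-hormone UMIs on log axes; the solid line marks equal levels and dashed lines 2-fold differences. Most genes lie within 2-fold, with Rps27, Rpl36 and Rps27rt past it on the high side; with hormone UMIs in the totals all 84 lie above the solid line.

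A gene was called at a 2-fold or larger ratio whose interval excluded 1. Over endocrine cells 3 of 84 members were called higher in Isl1CKO, Rps27 (1.05), Rpl36 (1.01) and Rps27rt (1.53), and 0 lower, against 4.83% of all 11014 measured genes higher and 10.3% lower. The median member stood at 0.00 and the median of all measured genes at -0.17. With all UMIs in the total 21 of 84 members were called higher and 0 lower, against 22.5% and 2.71% of all measured genes. Rps27rt, a copy of Rps27, was at only 4.57 and 13.3 CPM, and reads of Rps27 and Rps27rt may not be told apart by the counting.

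In glucagon cells 1 of 85 members was called higher (Rps27rt, 1.28) and 3 lower, against 4.79% and 22.3% of all measured genes. The 3 were Rps12 (2899 CPM in control and 1303 in Isl1CKO, log2 ratio -1.15), Rpl35a (2841 and 1358, -1.06) and Rps24 (7884 and 3858, -1.03). Their ratios stayed negative under each scaling, as the largest shift, with all UMIs, was 0.66, but with TMM 0 of 84 members were called lower and 6 higher, against 10.6% and 9.0% of all measured genes. The median member was at -0.29 and turned to 0.11 with TMM, 0.13 with RLE and 0.37 with all UMIs; the median of all measured genes was -0.45.

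In insulin cells 13 of 84 members were called higher and 0 lower, against 6.59% and 10.9% of all measured genes. The largest ratios were those of Rps28 (164 CPM in control and 532 in Isl1CKO, log2 ratio 1.69), Rpl37rt (1.48), Rpl36 (790 and 2195, 1.47), Rps27 (558 and 1492, 1.42) and Rpl27 (200 and 504, 1.33). The others were Rps29, Rpl37, Rpl30, Rpl36a, Rpl34, Rpl38, Rps19 and Rpl24. Of the 84 members 78 had positive ratios and the median was 0.56, while that of all measured genes was -0.19. Positive ratios were found in 78 members with TMM and with RLE too. By sex, 24 of 85 were called higher in female insulin cells, against 3.21% of all measured genes, and 2 of 84 in male ones (Rps28 and Rpl37rt), against 5.46%; 0 were called lower in either, against 9.5% and 8.91%. The female figure rests on 20 control cells. Rpl37rt, a copy of Rpl37, had 12 UMIs (16.8 CPM) in male control insulin cells. Its reads and those of Rpl37 may not be told apart by the counting. In cells without a hormone 17 of 84 were called higher and 0 lower, against 3.51% and 12.4%, led by Rps28 (158 and 564 CPM, 1.82) and Rps27 (576 and 1789, 1.63); here control has 101 cells.

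**Figure D4:**
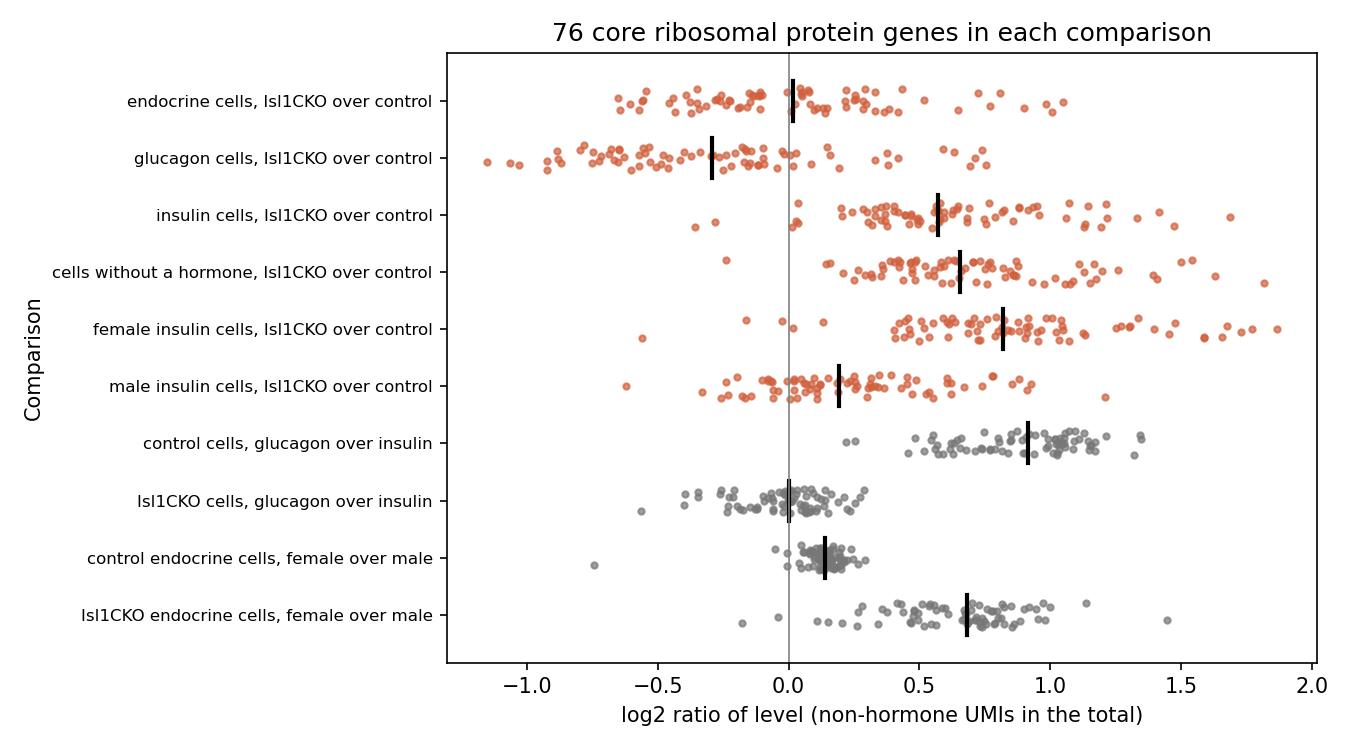
log2 ratio of level for the 76 core ribosomal protein genes (dots) in comparisons between the libraries (red) and within a library (grey), with non-hormone UMIs in the total; black bars are medians. Ratios scatter more widely between libraries than within one, and the glucagon median of -0.29 turns positive with TMM, RLE or all UMIs in the total.

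Sex moved with the called genes. Rps27 in female endocrine cells stood at 882 CPM in control and 2194 in Isl1CKO, and in male cells at 814 and 805. The library difference of Rps27 was thus larger in female cells, while over male endocrine cells the values nearly coincided, where the median member had a log2 ratio of -0.44. By group, male cells were at 953 in control and 886 in Isl1CKO with glucagon, but at 580 and 815 with insulin and at 570 (34 cells) and 800 without a hormone. Within Isl1CKO female cells were higher in each group: 1822 in female and 886 in male glucagon cells, 1940 and 815 in insulin cells, and 2247 and 800 without a hormone. In control the sexes were close in glucagon cells (992 and 953) and in insulin cells (578 and 580).

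Rpl24, a protein at the interface of the subunits, was similar over endocrine cells, with 333 and 681 CPM in control and Isl1CKO female cells and 324 and 340 in male cells. Rpl36 was at 1236 and 2829 in female cells and at 1136 and 1461 in male cells, so that the ratio was positive in both but larger in female cells (1.19 and 0.36). Rps28 (1.14 and 0.41), Rpl27 (1.02 and 0.54), Rpl38 (0.90 and 0.37) and Rps29 (0.78 and 0.43) did likewise. Rpl41 had close ratios of 0.39 and 0.34. Over female endocrine cells 7 of 85 members were called higher in Isl1CKO and 0 lower, against 6.67% and 15.1% of all measured genes. Over male cells 0 of 84 were called higher and 1 lower (Rps3, 2263 and 1127 CPM), against 3.33% and 7.12%.

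Rpl29, chosen after its values were seen, ran opposite ways in the libraries. In control it stood at 916 CPM in female and 1536 in male cells, and in Isl1CKO at 2024 in female and 1026 in male cells. The control difference was present in glucagon cells (1005 and 1824) and insulin cells (571 and 1179, from 20 and 99 cells), and the Isl1CKO difference in glucagon (1996 and 980), insulin (2110 and 1148) and hormone-free cells (2012 and 1001). Over control endocrine cells its female over male log2 ratio was -0.75, and the next lowest of the 76 core members was Rps2 at -0.05. The gene lies at chr9:106429454-106431568 (GRCm38) on the + strand and codes for a protein of 160 residues of the large subunit.

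Within Isl1CKO, female over male cells, 4 of 84 members were called higher (Rps27, 1.45; Rps27rt, 1.30; Rpl32, 1.14; Rpl24, 1.00) and 0 lower, against 4.5% and 7.62% of all measured genes, and 79 of 84 ratios were positive with a median of 0.68. Lowest were Rps4l (-0.54) and Rps27l (-0.35). In control the same comparison gave 0 calls either way, against 0.285% and 0.652%, with 78 of 84 ratios positive and a median of 0.13.

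The 4 X-linked members are given by sex. Rpl39 was at 705 CPM in female and 709 in male control cells, Rpl10 at 3214 and 2947, Rps4x at 3543 and 3233 and Rpl36a at 808 and 724. In Isl1CKO their levels were 938 and 815, 2853 and 1902, 2809 and 1748, and 1070 and 641. As female over male log2 ratios these were -0.01, 0.13, 0.13 and 0.16 in control and 0.20, 0.58, 0.68 and 0.74 in Isl1CKO. Rpl10, Rps4x and Rpl36a thus lay near the median of all members (0.13 and 0.68), and Rpl39 below it. In Isl1CKO glucagon cells Rpl39 was at 985 in female and 1037 in male cells.

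The paralogs were expressed at lower levels. Rpl22l1, a paralog of Rpl22, was at 699 CPM in control and 667 in Isl1CKO, Rps27l, a paralog of Rps27 and a known p53 target, at 417 and 451, and Rpl36al at 451 and 362. Rpl7l1, a paralog of Rpl7, was at 73.5 and 55.4. In insulin cells Rps4l, Rpl7l1, Rpl36al and Rps27l deviated from the median member by -1.09, -1.17, -0.89 and -0.41, so they did not share the higher ratios of the core genes there. Rps27l went with sex the other way from Rps27, at 415 CPM in female and 529 in male Isl1CKO cells.

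Within the control library glucagon cells had 32 of 84 members called higher than insulin cells and 0 lower, against 7.07% and 10.8% of all measured genes. The median member was at 0.89, and the highest ratios were those of Rps24 (1.35), Rpl27a (1.34) and Rps3a1 (1.32). Only 5 members were negative, Rps19bp1, Rps4l, Rpl7l1, Rpl36al and Rps27l, all of them outside the core. Within Isl1CKO the same comparison had 0 members called higher and 0 lower, against 2.83% and 17.4%, with a median of 0.00, Rps4l (-0.62) and Rps12 (-0.56) lowest and Rplp0 (0.29) highest. Glucagon cells of control also stood above somatostatin cells, with a median of 0.62 and 81 of 84 members positive.

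Gene length went with the deviations between the libraries, a pattern looked for after the values were seen. Over endocrine cells the log2 ratio of the 76 core members and their coding length had a Spearman rho of -0.54 across genes, which share library and total. The 27 members of at most 405 coding bases had a median ratio of 0.29 and the 26 of at least 564 bases one of -0.25. With TMM all ratios are 0.20 higher, which leaves these medians on either side of 0, while with all UMIs (0.74 higher) both are positive. The rho was -0.49 in glucagon, -0.47 in insulin and -0.47 in hormone-free cells, -0.51 in female and -0.57 in male endocrine cells, and -0.56 in free RNA. In comparisons within a library it was near 0: 0.02 for female over male Isl1CKO cells, 0.13 for female over male control cells, -0.03 for glucagon over insulin cells in control and -0.15 in Isl1CKO.

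The scatter of the core ratios had the same split, with SDs of 0.34 to 0.46 between libraries and 0.12 to 0.26 within one. Other measured genes, 10299 of them with a coding length, had a rho of 0.15 over endocrine and 0.18 in insulin cells, but of -0.19 in glucagon cells, the sign of the members, and of -0.02 in hormone-free cells. Genotype, pool of animals and library preparation cannot be told apart with 1 library each.

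**Figure D5:**
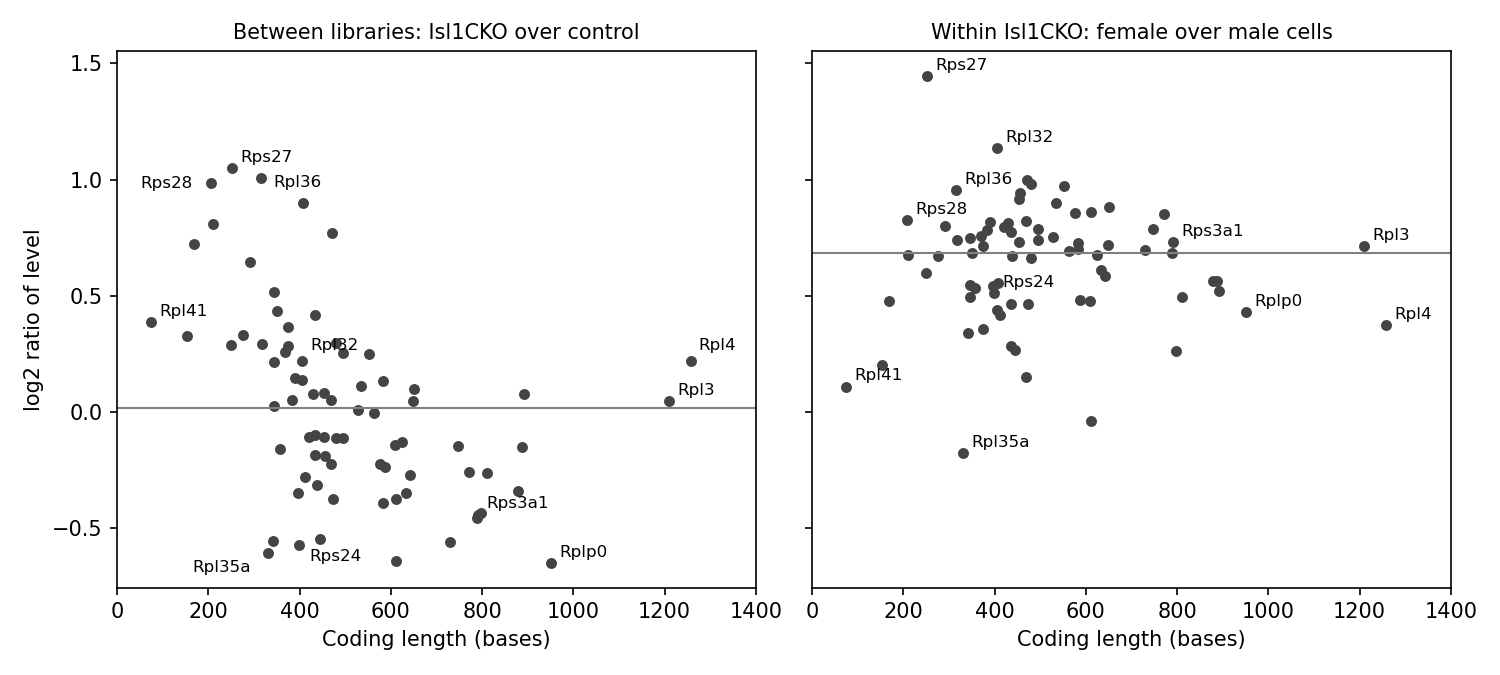
log2 ratio of level against coding length in bases for the 76 core genes, Isl1CKO over control endocrine cells (left) and female over male Isl1CKO cells (right); horizontal lines are medians, non-hormone UMIs are the total. Short genes lie high and long ones low on the left (rho -0.54, all ratios 0.74 higher with all UMIs in the total), with no such slope on the right (rho 0.02).

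The pyrimidine tract at the transcription start, a shared feature that the choice of members did not use, was read from RefSeq start sites on GRCm38.p6, which matched 66 of the 90 members and 56 core ones. A start was counted when its first base was C and at least 4 more pyrimidines (C or T) followed, on the gene's own strand only. A gene counted when any of its annotated starts met this, which held for 13 of 56 core members (23.2%) and for 2.96% of 26959 other genes. By start it was 19.7% of 66 and 2.47% of 32773. A C followed by at least 6 pyrimidines within 10 bases before to 17 after the start was found in 48.2% and 14.1%. Annotated starts can lie some bases from the main one, so no match says only that these letters are not at the annotated base. The windows shown are 30 bases before to 20 after the start of 2 genes above the median member (Rps27, Rpl38), 2 below it (Rpl15, Rpl35a) and the Rps27 paralog Rps27l, with the pyrimidine run through the start in capitals.
Rps27, chr3:90213629-90213678, - strand: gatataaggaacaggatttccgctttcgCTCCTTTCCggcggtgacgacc
Rpl38, chr11:114668550-114668599, + strand: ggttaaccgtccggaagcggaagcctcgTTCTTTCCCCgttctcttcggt
Rpl15, chr14:18270967-18271016, - strand: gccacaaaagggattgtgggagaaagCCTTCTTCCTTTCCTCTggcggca
Rpl35a, chr16:33056452-33056501, + strand: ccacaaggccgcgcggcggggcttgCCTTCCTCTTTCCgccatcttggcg
Rps27l, chr9:66946056-66946105, + strand: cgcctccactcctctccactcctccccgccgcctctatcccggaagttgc
The 4 core genes carry runs of 9, 10, 17 and 13 pyrimidines through the start, and Rps27l carries none there. These 4 are all from the 13 of 56 core members that met the rule, so they do not stand for the core members at large. Of the other named genes far from the median member, Rps28, Rpl27, Rpl24, Rplp0, Rps24, Rps3 and Rpl27a did not meet it. For Rpl35a the start shown is the one of 3 that met the rule, the others having runs of 4 and 0. Rps27l has another start, also with no run through it. The Rps27l start shown does meet the looser rule of a C and at least 6 pyrimidines near the start. Of the 13 core members with the start tract 8 deviated upward and 5 downward between the libraries over endocrine cells, and of the 43 without it 21 and 22.

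Of the ribosomal genes outside the symbol rule, Rpsa, Gnb2l1 and Fau were not called over endocrine cells. Rpsa, a small subunit protein, was at 2861 CPM in control and 2116 in Isl1CKO, and Gnb2l1, a scaffold on the small subunit, at 1038 and 833. Fau, made as a fusion with a ubiquitin-like protein, was at 3436 and 4083. In insulin cells these 3 were higher, with log2 ratios of 0.41 (Rpsa), 0.26 (Gnb2l1) and 0.67 (Fau) to which each other scaling only adds. Among 8 measured elongation factor genes 0 were called higher and 1 lower over endocrine cells, Eef1e1 (33.1 and 15.8 CPM); Eef1a1, which delivers tRNAs and has a TOP mRNA itself, stood at 1694 and 2597, and in insulin cells at 1157 and 2645, where it was called. There 2 of the 9 measured were called lower, Eef1a2 (22.5 and 7.0) and Eef1e1 (33.8 and 16.8), 6 of 9 ratios were negative and the median was -0.13. The 30 initiation factor genes had 0 calls over endocrine cells and a median of -0.01. Of all measured genes 4.83% were called higher and 10.3% lower over endocrine cells, and 6.59% and 10.9% in insulin cells. In lists this short the counts of calls are not read as a result.

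Of 11 other genes with known TOP transcripts 1 was called higher, the snoRNA host Snhg8 (244 and 609 CPM), and 0 lower, with a median of -0.09; Tpt1 was lowest at 2748 and 1902. In insulin cells 2 of the 11 were called higher, Snhg8 (95.8 and 492) and Gas5 (371 and 830), against 6.59% of all measured genes. Ribosome assembly genes had 0 calls among 36 and a median of -0.11. Over endocrine cells 4.83% of all measured genes were called higher and 10.3% lower, so 1 or 2 calls in such short lists say little. Of 22 measured genes of translation control, 2 were called higher and 0 lower. They were Ddit4 (21.1 and 186 CPM, 3.14), a stress-induced inhibitor of mTOR, and Sesn1 (28.2 and 73.0, 1.37), a p53 target that also restrains mTOR.

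The mitochondrial ribosomal protein genes, the counterparts in the other ribosome of the cell, were fitted alike. Of 75 measured, 0 were called higher and 7 lower over endocrine cells, with a median of -0.38, and 65 were negative; the 7 are a share near the 10.3% of all measured genes called lower. Lowest were Mrps6 (50.2 and 17.4 CPM, -1.53) and Mrpl36 (224 and 84.1, -1.41). In insulin cells, where the cytosolic median was 0.56, theirs was -0.50, with 10 of 75 called lower against 10.9% of all measured genes. The negative medians hold with TMM, whose shifts were 0.20 and 0.21, but turn with all UMIs in the total, whose shifts were 0.74 and 1.31.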

How the data were processed

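Deposited counts are whole-number UMI counts of 46984 features in 6794880 barcodes for each of 2 libraries, without normalization, of which the control library held 48685758 UMIs and the Isl1CKO library 86086781. Reads were counted with STARsolo of STAR 2.7.3a on GRCm38.p6, and Seurat 4.3.0.1 was used, per the submitters' processing notes; the strand setting and the handling of reads with several matches are not given in the sources used here, and 32 of the 90 members overlap another annotated gene, 26 of them one on the opposite strand, while 262 -ps pseudogenes held 0.119% and 0.120% as many UMIs as the members.

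A cell was kept with 1000 or more UMIs, 500 or more genes and no more than 15% mitochondrial UMIs (4219 and 8231 cells); 19 and 86 with at least 1% acinar or 0.3% immune, stromal, endothelial or Schwann marker UMIs were left out. Doublets were kept; Scrublet (scanpy 1.11.5) marked 249 control and 0 Isl1CKO cells on its own threshold, so it did not work in Isl1CKO, and 360 there at the control threshold of 0.185. Groups were set by hormone UMIs (1% or more of the cell's) and then factor UMIs (1 or more). A sex needed Xist without, or Y-linked UMIs (Ddx3y, Eif2s3y, Kdm5d, Uty) with no Xist.

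UMIs were summed per library and group. Log2 ratios added 1 to each sum and have exact conditional Poisson intervals; shares have Clopper-Pearson intervals. A gene counted as measured from 5 CPM in 1 library. TMM and RLE factors came from edgeR 4.0.16 in R 4.3.3. The scripts were tested on simulated data. The genes named are the 8 highest in control, the 8 highest and 8 lowest relative to the median member among those with 1 sign over endocrine, glucagon and insulin cells, all paralogs and X-linked members, genes called, and the extremes of other lists. A few that the rule gives are not reported here. Alternatives were other totals, scalings, filters, hormone limits, sexes, doublet removal and core genes only. The members and lists were chosen with earlier results of these data known; the length relation, the sex split of single genes, the comparisons within a library and a total without tdTomato were added after seeing the data.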

Additional observations from a re-analysis of the deposited data

Results flagged for a closer look

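The log2 ratio of the ribosomal protein share of non-hormone UMIs, Isl1CKO over control endocrine cells, was 0.053 in female cells and -0.46 in male cells. It was singled out because the sexes of the same comparison went opposite ways; the difference was not tested, as there is 1 library per genotype and its cells are not tied to animals. The female value is near 0, and in glucagon, insulin and hormone-free cells the sexes had the same sign. The log2 ratio of the share in glucagon over insulin cells of Isl1CKO was -0.15 in female cells (121 and 519) and 0.16 in male cells (30 and 270), singled out for the same reason and likewise not tested.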

How the results depend on the processing

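Values are log2 ratios of the ribosomal protein share, Isl1CKO over control, unless said otherwise, and an alternative counts as a move when it leaves the counting interval, which is narrow at this depth. The cause of each move was not tested. Over endocrine cells (-0.05) the sign turned with all UMIs in the total (0.69), TMM (0.15), RLE (0.15), female cells (0.053) and the median share per cell (0.055); it was -0.46 in male cells and nearly as reported without mitochondrial genes (-0.043) or tdTomato (-0.046) in the total, at 3000 UMIs (-0.044), at 5% mitochondrial UMIs (-0.041) and without Scrublet-marked cells (-0.053). In glucagon cells (-0.37) it turned with all UMIs (0.29), TMM (0.030) and RLE (0.047) and was -0.38 at 3000 UMIs, -0.38 and -0.35 at hormone limits of 0.5% and 5% (11 Isl1CKO cells at the latter), -0.32 and -0.56 in female and male cells and -0.36 per cell. In insulin cells (0.54) it was 1.86 with all UMIs, 0.75 with TMM, 0.73 with RLE, 0.55 for core genes, 0.50 at a limit of 5%, 0.79 in female and 0.16 in male cells. Without a hormone (0.66) these values were 0.69, 1.02 and 0.99 for the scalings, 0.65 at 3000 UMIs, 0.59 at 5%, 0.86 and 0.15 by sex and 0.72 per cell.

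Counts of members past 2-fold in either direction over endocrine cells (3) were 21 with all UMIs, 6 with TMM and 6 with RLE; in glucagon cells (4) 11 with all UMIs and 7 with RLE; in insulin cells (13) 79, 24 and 23. In insulin cells all of these were higher, against 61.3%, 9.11% and 8.83% of all measured genes, and in glucagon cells too, against 14.6% and 9.28%; over endocrine cells all were higher, against 22.5%, 6.52% and 6.55%. At 1.5-fold the counts were 14 (10 higher and 4 lower, against 10.4% and 23.6% of all genes), 30 (7 and 23, against 8.2% and 38.8%) and 36 (35 and 1, against 11.1% and 21.7%). Other filters on low counts left them at 2 to 3, 3 to 4 and 13.

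Shares of hormone-free groups, with 2 UMIs of a factor and after thinning to 3000 UMIs, were 14.1% and 14.2% for alpha factors in Isl1CKO, 8.97% and 8.99% for beta factors in control, 14.1% (2 UMIs) for beta factors in Isl1CKO, 16.2% and 16.6% for Hhex, 14.2% and 15.4% for mixed factors, and 15.3% and 14.8% for none. No paired analysis was possible because each genotype has 1 library. Of the glucagon, insulin and hormone-free groups, those of control without a hormone (101 cells), Isl1CKO with glucagon (172) and control with insulin (187) hold the fewest cells, and none of the intervals covers differences between animals.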
